A study of Mus musculus with 18 samples.

Results

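The effect of losing caspase-6 was compared between the 2 white fat depots of the study, iWAT (inguinal white adipose tissue, under the skin) and eWAT (epididymal white adipose tissue, inside the abdomen), in 12 of the 18 RNA-seq libraries. These are 3 WT and 3 C6KO libraries of iWAT and 3 WT and 3 C6KO libraries of eWAT. The 6 libraries of brown fat were not used. WT and C6KO (caspase-6 knockout) mice were male littermates on the C57BL/6J background, born to heterozygous parents. The knockout is global, so Casp6 was lost in every cell of the mouse and not in fat cells alone. All mice of both genotypes ate a high fat diet (HFD, 60% of calories from fat) for 12 weeks, starting at 10 to 14 weeks of age, and none of the libraries comes from mice on chow. The libraries are labelled as biological replicates, but the sources used here do not say whether equally numbered iWAT and eWAT libraries came from the same mouse.

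Caspase-6 is a cysteine protease best known from programmed cell death. In obesity, white fat takes up monocytes that become macrophages, many of which surround dying adipocytes, take up their lipid and secrete cytokines. In mice, epididymal fat is the depot known for the heavier macrophage load on an HFD, and inguinal fat is the depot known for its capacity to store lipid and to acquire features of brown fat.

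Values for a gene are given as CPM, the usual scale of a gene's share of the counts of its library, after TMM scaling of the libraries, in the order of replicates 1, 2 and 3. Log2 fold changes are C6KO against WT, so a negative value is a lower level in C6KO. The difference between the depots is the log2 fold change of iWAT minus that of eWAT, tested as the interaction term of one edgeR quasi-likelihood fit to all 12 libraries, and the depots share no control samples. All adjusted p-values are Benjamini-Hochberg values over the 15404 genes tested. A gene was called at an adjusted p below 0.05 with a fold change of at least 1.5. Library totals were between 16506034 and 19139694 counts. In iWAT, C6KO replicate 3 lay between the WT libraries and the other C6KO libraries for many genes, and in eWAT WT replicate 2 was the highest library for T cell and antigen presentation genes. Values without these libraries are given beside the results that they move most. Both libraries were singled out after their values were seen. Leaving out iWAT C6KO replicate 3 leaves 2 libraries in that group. For many genes it also moves the group further from WT and narrows its spread. Calls and adjusted p-values from that fit therefore show how far a result depends on this library. They do not test a difference between the depots.

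Casp6 itself, on chromosome 3 of mm10 from 129901415 to 129914112, was at 21.2, 21.0 and 17.1 CPM in iWAT of WT mice and at 5.72, 6.35 and 8.30 CPM in iWAT of C6KO mice. In eWAT it was at 18.2, 22.1 and 18.3 CPM in WT and 5.75, 6.35 and 4.09 CPM in C6KO. Every C6KO library lay below every WT library in both depots, and reads of the gene remained in all 6 C6KO libraries. The log2 fold change of Casp6 was -1.54 in iWAT (standard error 0.20, adjusted p = 0.00322) and -1.85 in eWAT (standard error 0.20, adjusted p = 0.00195), and the difference of 0.31 (standard error 0.28) did not pass the interaction test (adjusted p = 0.843).

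Across the transcriptome, no gene passed the test of a different knockout effect in the 2 depots. The interaction test of edgeR called 0 of 15404 genes (0.0%), with a smallest adjusted p of 0.343. At an unadjusted p below 0.05 the difference was negative for 885 genes and positive for 273, and with a fold of at least 1.5 added it was negative for 660 genes (4.28%) and positive for 137 (0.889%). limma with sample weights also called 0 genes, whereas DESeq2 called 36 negative and 2 positive differences. Once iWAT C6KO replicate 3 was left out, edgeR called 403 negative (2.58%) and 20 positive (0.128%) differences among 15648 genes. Of those 403 genes, 335 had lower estimates in both depots and 68 had a lower estimate in iWAT and a higher one in eWAT. Without iWAT C6KO replicate 1 it called 0 negative and 1 positive, and without any of the other libraries it called 0. The count of called differences therefore depended on iWAT C6KO replicate 3 and on the tool.

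Within each depot, the joint fit called 436 genes lower (2.83%) and 55 higher (0.357%) in iWAT of C6KO mice, and 4 lower (0.026%) and 5 higher (0.0325%) in eWAT. The order of the depots in these counts turned with the fit. When each depot's 6 libraries were fitted alone, edgeR called 3 genes lower and 1 higher in iWAT, but 31 lower and 80 higher in eWAT. The joint fit called 1230 lower and 360 higher in iWAT and 34 lower and 102 higher in eWAT when iWAT C6KO replicate 3 was left out. Leaving out any other iWAT library lowered the count of lower genes in iWAT to between 89 and 156, and leaving out eWAT WT replicate 3 lowered it to 279. The number of called genes is therefore no measure of which depot changed more, and the sizes of the estimates are described below in its place.

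At an unadjusted p below 0.05 and a fold of at least 1.5, 1292 genes were lower (8.39%) and 400 higher (2.6%) in iWAT, and 295 were lower (1.92%) and 586 higher (3.8%) in eWAT. The lower genes shared by both depots numbered 135 (0.876%), which is 10.4% of the iWAT genes and 45.8% of the eWAT genes. The shared higher genes numbered 125 (0.811%), or 31.2% of the iWAT genes and 21.3% of the eWAT genes. The directions were mostly alike: 85.7% of the genes lower in iWAT also had a negative estimate in eWAT, and 91.9% of those lower in eWAT had one in iWAT. For the higher genes these shares were 83.5% and 84.1%. For the lower genes of iWAT the median estimate was -1.13 there and -0.35 in eWAT, whereas the lower genes of eWAT had -0.98 in eWAT and -0.84 in iWAT. Each set was picked on the estimates of its own depot, which favours a larger median there. These medians therefore do not measure which depot changed more. Over all genes tested the medians were -0.01 in iWAT and 0.00 in eWAT, and the median difference was -0.04. The plot of knockout effects per gene shows the 2 depots against each other.

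**Figure D1:**
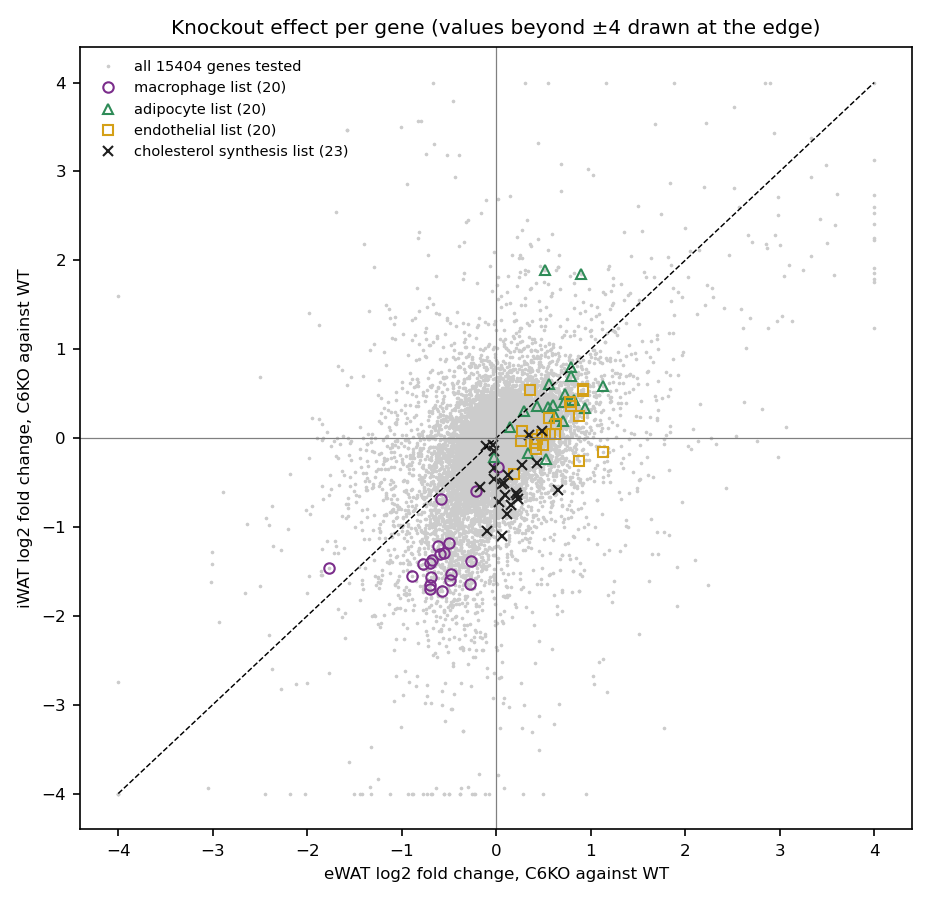
Log2 fold change of C6KO against WT for each of 15404 genes tested, eWAT on the horizontal axis and iWAT on the vertical axis, with 4 gene lists marked and the dashed line at equal effects. The 20 macrophage genes sit mostly below the dashed line in the lower left, the 20 adipocyte genes mostly in the upper right, the 20 endothelial genes at 0 or above in eWAT and around 0 in iWAT, and the 23 cholesterol synthesis genes mostly below 0 in iWAT and around 0 in eWAT.

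With all 12 libraries, 5 genes were called in the same direction in both depots, and 3 of them lie near the deleted gene. Once iWAT C6KO replicate 3 was left out, 31 were called lower and 36 higher in both. Casp6 fell, as did Rpl34, which encodes a protein of the large ribosomal subunit, and Rpl34-ps1, which is annotated at the same place. Rpl34 was at 39.6, 39.7 and 34.4 CPM in iWAT of WT mice and 0.578, 1.42 and 1.35 CPM in C6KO, and at 66.6, 76.6 and 58.6 CPM against 0.919, 1.49 and 1.33 CPM in eWAT. The C6KO libraries were close to 0 in both depots, with log2 fold changes of -5.08 and -5.74. Rpl34 (130726827 to 130730337) and Rpl34-ps1 (130726837 to 130730329) are annotated on the same strand of chromosome 3 and overlap almost fully. These entries can hold the same reads, so their separate values are uncertain and they are not independent calls. Within 10 Mb of Casp6, 87 other genes were tested, of which 12 were called lower and 1 higher in iWAT and 3 lower in eWAT, and effects of the deletion and of the genome around it cannot be told apart for them.

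The other 2 genes called in both depots rose. Of these, Amy1 is on chromosome 3 as Casp6 is (113555952 to 113574762), outside the window around Casp6 used above. Whether its rise came from the deletion or from the genome linked to it was not tested. Amy1, a salivary-type amylase, was at 232, 214 and 233 CPM in WT and 372, 511 and 330.5 CPM in C6KO libraries of iWAT. Its eWAT levels were lower, at 48.0, 40.2 and 45.0 CPM in WT and 112, 92.2 and 84.8 CPM in C6KO. The groups did not overlap in either depot, and the log2 fold changes were 0.84 in iWAT (standard error 0.16, adjusted p = 0.0176) and 1.12 in eWAT (standard error 0.16, adjusted p = 0.0279). A530053G22Rik, a gene without a known product, rose by a log2 fold change of 0.66 in iWAT (adjusted p = 0.0300) and 1.05 in eWAT (adjusted p = 0.0279).

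Taken over all immune genes, the median effect was in the same direction in both depots, though not for every list. Its size depended on the cell type and on whether it was read as a ratio or as a level. In a union of 265 immune genes from 16 lists (markers of immune cell types and lymphoid follicle stroma, chemokines, cytokines, interferon-induced genes, MHC class II, complement and Fc receptors, Toll-like receptors and the phagocyte oxidase), the median log2 fold change was -0.59 in iWAT and -0.44 in eWAT. Both estimates were below 0 for 186 of the 265 genes, and for 111 of these the estimate was further below 0 in iWAT. In eWAT the medians of the neutrophil list (0.35) and the B cell list (0.06) were above 0. The joint fit called 25 of the 265 genes lower and 1 higher in iWAT, and 0 lower and 0 higher in eWAT, where 39 were lower and 7 higher at an unadjusted p below 0.05 with the fold minimum, against 85 and 5 in iWAT. Fitted without iWAT C6KO replicate 3, the called genes were 84 lower in iWAT and 3 lower in eWAT, and the difference between the depots was called negative for 45 of the 265. Without that library the median was -0.98 in iWAT and -0.44 in eWAT, and the median difference went from -0.17 to -0.57. Fitted without eWAT WT replicate 2, the median was -0.59 in iWAT and -0.27 in eWAT.

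Counting genes whose C6KO libraries all lay below all WT libraries gave a more even picture. Over all genes tested, 2103 (13.7%) were lower in this sense in iWAT, 1676 (10.9%) in eWAT and 688 (4.47%) in both. Among the 265 immune genes the numbers were 89, 68 and 49. In the other direction, 1285 (8.34%) of all genes were higher without overlap in iWAT, 1849 (12%) in eWAT and 419 (2.72%) in both, against 9, 11 and 2 of the immune genes. These shares, and the shares of all genes called in each depot, are the background for the counts of every list below. A count near them does not set a list apart. The summed level of the 265 genes had a mean of 25559.9 CPM in WT and 19375.0 CPM in C6KO in iWAT. The ratio was 0.758, or 0.714 without C6KO replicate 3. In eWAT the means were 54529.9 and 42341.0 CPM, a ratio of 0.776, or 0.835 without WT replicate 2. In level, C6KO minus WT was -6184.9 CPM in iWAT and -12188.9 CPM in eWAT, whose WT libraries were 2.13 times higher. These sums include Cfd, which adipocytes secrete and which was higher in C6KO in both depots. The complement and Fc receptor list that holds Cfd rose from a mean of 6003.9 to 6815.7 CPM in iWAT. The ratios of the sums are therefore not those of immune cell genes alone. In whole tissue, fewer cells of a type and less RNA per cell cannot be told apart, and CPM are shares of a library, so a list's level also depends on what the rest of the library holds.

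**Figure D2:**
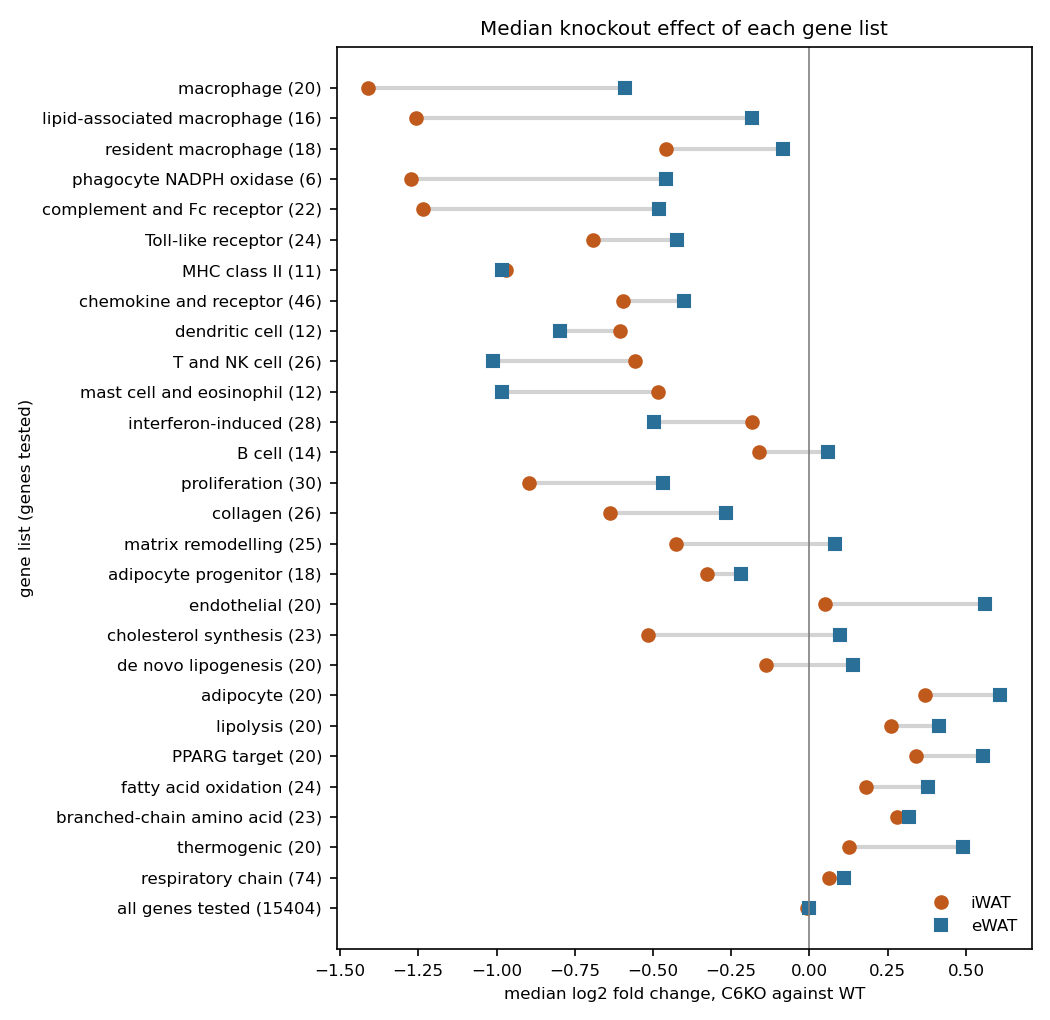
Median log2 fold change of C6KO against WT over the genes of each list (number of genes tested in brackets), circles for iWAT and squares for eWAT. Macrophage lists lie further below 0 in iWAT than in eWAT, T and NK cell and mast cell lists further below 0 in eWAT, and adipocyte, lipolysis and PPARG target lists above 0 in both.

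Genes of the macrophage list were mostly lower in both depots and by a larger ratio in iWAT. Of 20 genes of the macrophage list, 18 had all C6KO libraries below all WT libraries in iWAT, 18 in eWAT and 17 in both. The median over the list was -1.41 (log2 fold change) in iWAT and -0.59 in eWAT, with a median difference of -0.71 and a negative difference for 19 of the 20. Called lower in iWAT were 7 of them, Csf1r, Itgam, C1qa, C1qc, Mrc1, Cybb and Laptm5, and none was called in eWAT. Their summed level in iWAT was 2913.2, 3155.3 and 3400.9 CPM in WT and 770.1, 822.6 and 2137.2 CPM in C6KO. In eWAT it was 9946.9, 12477.5 and 9780.2 CPM in WT and 6185.6, 8090.5 and 7469.6 CPM in C6KO. C6KO replicate 3 of iWAT kept more of this signal than the other 2 C6KO libraries, yet the groups did not overlap in either depot. The mean ratio of C6KO to WT was 0.394 in iWAT, or 0.252 without that replicate, and 0.675 in eWAT, or 0.735 without WT replicate 2. In level, C6KO minus WT was -1913.2 CPM in iWAT and -3486.3 CPM in eWAT. Without iWAT C6KO replicate 3, 17 of the 20 genes were called lower in iWAT and 2 in eWAT, and the difference between the depots was called for 15.

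**Figure D3:**
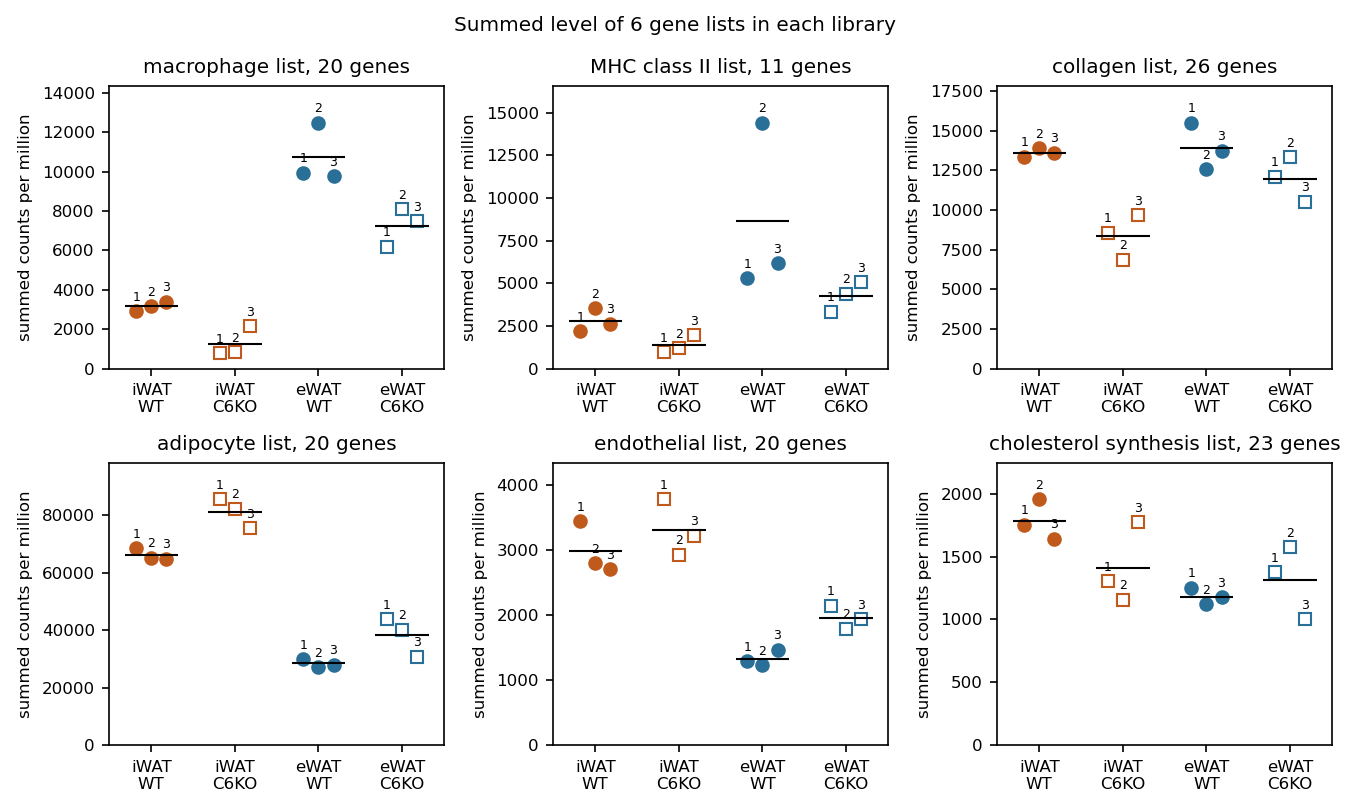
Summed CPM of 6 gene lists in each library, numbered by replicate, for WT (filled circles) and C6KO (open squares) in iWAT and eWAT, with the group mean as a line. The macrophage sums of the C6KO libraries lie below those of WT in both depots, while the endothelial sums of C6KO lie above WT in eWAT and overlap with it in iWAT.

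Itgam, the alpha chain of the integrin Mac-1, illustrates the pattern. It was at 69.9, 67.9 and 70.8 CPM in WT and 13.9, 13.2 and 41.8 CPM in C6KO libraries of iWAT, and at 291, 250.1 and 246 CPM in WT and 204, 181 and 175 CPM in C6KO libraries of eWAT. No C6KO library reached a WT level in either depot. The log2 fold change was -1.60 in iWAT (standard error 0.36, adjusted p = 0.0390) and -0.49 in eWAT (standard error 0.34, adjusted p = 0.607), and the difference of -1.11 (standard error 0.49) did not pass the test with all libraries (adjusted p = 0.663). Leaving out iWAT C6KO replicate 3, the difference for Itgam was -1.87 and was called (adjusted p = 3.7e-05). Csf1r, the receptor that macrophages need for survival, was at 244, 256 and 271 CPM against 75.8, 68.2 and 171 CPM in iWAT, and 773, 903 and 742 CPM against 489, 624 and 538 CPM in eWAT. It fell in iWAT by 1.29 on the log2 scale (adjusted p = 0.0305), while its estimate in eWAT was -0.55 (adjusted p = 0.424). Adgre1, which encodes the macrophage marker F4/80, had no overlap in either depot but was called in neither, with estimates of -1.72 (adjusted p = 0.0849) and -0.57 (adjusted p = 0.682). The differences for Csf1r and Adgre1 were also called without that library, at -1.28 (adjusted p = 0.00174) and -2.24 (adjusted p = 9.8e-05). Mertk, a receptor for the uptake of dying cells, was the one member with no negative estimate in eWAT (0.02).

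**Figure D4:**
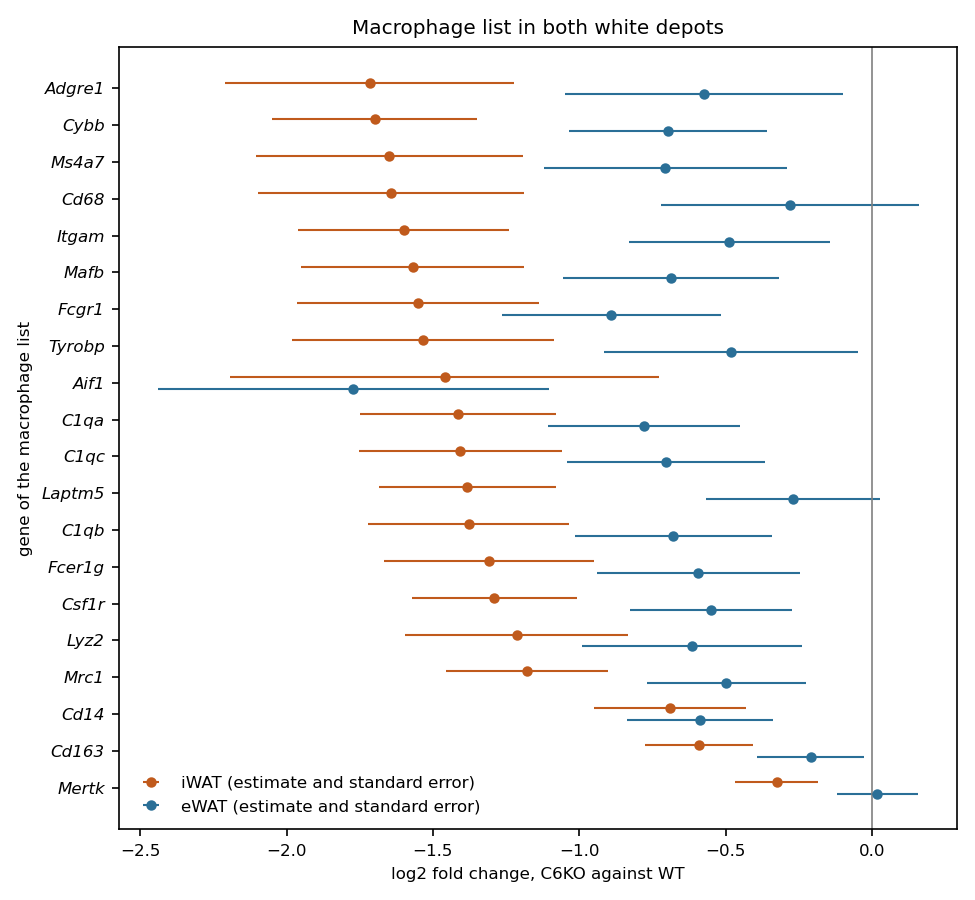
Log2 fold change of C6KO against WT for the 20 genes of the macrophage list in iWAT and eWAT, with bars for the standard error of the edgeR fit. All 20 iWAT estimates are below 0, and 19 of the 20 eWAT estimates are, mostly closer to 0 than in iWAT.

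Because these genes were lower together, their promoters are shown for the PU box, GAGGAAG, the core recognised by PU.1, a transcription factor of the macrophage lineage. In the RefSeq promoters of GRCm38.p6, the 7 letters on either strand within 250 bases before a start were in 3486 of 32851 promoters (10.6%), belonging to 3244 of 27025 genes (12%). Of the 20 macrophage genes, 14 matched the promoter table and 5 of them held the motif. Of the 17 that were lower without overlap in both depots, 11 matched and 5 held it. A match describes letters only, and binding was not measured. The stretches of 3 such genes follow, each on the plus strand with the motif or its reverse complement in capitals, and 40 bases on either side where the promoter reaches that far. They are Laptm5, a lysosomal membrane protein of blood cells, at chr4:130913237-130913315 with the motif 39 bases before the start, Itgam at chr7:128062516-128062602 with the motif 84 bases before it, and Mrc1, the mannose receptor, at chr2:14229206-14229292 with the motif 168 bases before it.
Laptm5: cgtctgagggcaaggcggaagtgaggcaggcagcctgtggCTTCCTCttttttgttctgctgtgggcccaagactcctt
Itgam: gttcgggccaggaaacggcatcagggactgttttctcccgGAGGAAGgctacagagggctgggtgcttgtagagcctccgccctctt
Mrc1: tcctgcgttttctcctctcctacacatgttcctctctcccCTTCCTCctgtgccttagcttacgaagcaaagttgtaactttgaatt

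All 3 genes fell in iWAT and had no overlap in eWAT. Laptm5 was at 198, 233 and 244 CPM in WT and 54.6, 58.4 and 146 CPM in C6KO libraries of iWAT, and at 605, 694 and 709.5 CPM against 549.6, 541 and 575 CPM in eWAT. Its log2 fold change was -1.38 in iWAT (standard error 0.30, adjusted p = 0.0318) but -0.27 in eWAT (standard error 0.30, adjusted p = 0.769). Mrc1 was at 132, 171 and 177 CPM in WT and 46.2, 52.8 and 113 CPM in C6KO in iWAT, and at 419.7, 474 and 374 CPM against 299, 276 and 323 CPM in eWAT. The log2 fold change of Mrc1 was -1.18 in iWAT (adjusted p = 0.0411) and -0.50 in eWAT (adjusted p = 0.470). The differences for Laptm5 and Mrc1 were called without iWAT C6KO replicate 3, at -1.73 (adjusted p = 9.9e-05) and -1.20 (adjusted p = 0.00516).

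Genes of lipid-associated macrophages, the cells that take up lipid from dying adipocytes, were also further below 0 in iWAT. The median over the list's 16 genes was -1.26 in iWAT and -0.19 in eWAT on the log2 scale, and the difference was negative for 16 of 16. In iWAT, 11 were lower without overlap and 4 were called lower (Cd9, Itgax, Lipa and Dcstamp), whereas in eWAT 4 were lower without overlap and none was called. Acp5 went the other way, higher without overlap in both depots (0.45 in iWAT and 0.50 in eWAT). Estimates above 0 numbered 1 in iWAT and 4 in eWAT. The summed level was 0.616 of WT in iWAT and 0.945 of WT in eWAT. The difference between the depots was called for 8 of the 16 without iWAT C6KO replicate 3.

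Gpnmb, a glycoprotein of lipid-laden macrophages, was at 654, 442 and 613 CPM in WT and 67.8, 74.7 and 353 CPM in C6KO libraries of iWAT. In eWAT it was at 3028, 1676 and 2693 CPM in WT and 3138, 2511 and 2344 CPM in C6KO. The groups were apart in iWAT and overlapped in eWAT, with estimates of -1.78 (standard error 0.56, adjusted p = 0.109) and 0.11 (standard error 0.54, adjusted p = 0.960), and the difference of -1.90 did not pass the test with all libraries (unadjusted p = 0.0343, adjusted p = 0.643). It was -3.11 and was called once iWAT C6KO replicate 3 was left out (adjusted p = 0.000157). Trem2, the lipid receptor that defines these cells, was at 106, 83.3 and 114 CPM against 8.78, 6.91 and 67.2 CPM in iWAT, and at 467, 399 and 423 CPM against 260.2, 392 and 308 CPM in eWAT. The C6KO libraries were lower without overlap in both depots, with estimates of -1.87 and -0.42 that passed the test in neither. Itgax, the dendritic and inflammatory macrophage marker CD11c, fell in iWAT (adjusted p = 0.0377), from 97.5, 88.4 and 97.3 CPM to 21.1, 7.99 and 42.3 CPM. In eWAT, Itgax was at 502, 396 and 421 CPM in WT and 286, 369 and 263 CPM in C6KO (adjusted p = 0.662). Leaving out iWAT C6KO replicate 3, the difference was called for Trem2 at -3.26 (adjusted p = 2.3e-05) and for Itgax at -2.18 (adjusted p = 0.0142).

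Effector systems of phagocytes also had medians further below 0 in iWAT. The 6 genes of the phagocyte NADPH oxidase, which makes superoxide, were all lower without overlap in iWAT and 4 were in eWAT, with medians of -1.27 and -0.46, and the genes called in iWAT included Cybb and Ncf1. The 22 complement and Fc receptor genes had medians of -1.24 and -0.48, with 16 lower without overlap in iWAT, 12 in eWAT and 12 in both, and 5 were called lower in iWAT (C1qa, C1qc, Itgam, Itgax and Fcgr3, some of which are on other lists too). The summed level of that list did not follow its median: it was 1.14 times WT in iWAT, where the groups overlapped, and 0.77 times WT in eWAT. Cfd, the protease adipsin that adipocytes secrete, was higher without overlap in both depots, with estimates of 1.84 (adjusted p = 0.0659) and 0.90, and the complement gene C2 was higher without overlap in iWAT (0.87, adjusted p = 0.162). The 24 genes of Toll-like receptors and their partners had medians of -0.69 and -0.42, with 13, 8 and 7 lower without overlap in iWAT, eWAT and both, and Tlr2, Tlr6, Tlr7 and Unc93b1 called lower in iWAT. None of these genes was called in eWAT. Leaving out iWAT C6KO replicate 3, the difference was called for 5 of the 6 oxidase genes, 9 of the 22 complement and Fc receptor genes and 5 of the 24 Toll-like receptor genes.

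Lymphocyte, mast cell and antigen presentation genes did not follow that order. The 26 T and NK cell genes had a median of -0.56 in iWAT and -1.01 in eWAT, and only 6 of the 26 differences were negative. All 26 estimates were below 0 in eWAT and 25 of 26 in iWAT, but the libraries overlapped for most: 2 genes were lower without overlap in iWAT, 2 in eWAT and 1 in both. Over all genes tested, the shares lower without overlap were 13.7%, 10.9% and 4.47%. Il7r, the interleukin-7 receptor, was the one called lower in iWAT. Its levels were 39.9, 42.3 and 45.0 CPM in WT and 4.85, 4.70 and 19.0 CPM in C6KO in iWAT, and 171, 138 and 159.6 CPM against 157, 132 and 111 CPM in eWAT. The iWAT groups were far apart and the eWAT groups overlapped, with log2 fold changes of -2.16 (adjusted p = 0.0299) and -0.23 (adjusted p = 0.870). The difference for Il7r was called once iWAT C6KO replicate 3 was left out (-2.92, adjusted p = 2.1e-05). Without iWAT C6KO replicate 3 the T and NK cell median in iWAT was -1.17 and the median difference turned to -0.21. Without eWAT WT replicate 2 the median in eWAT was -0.34 and the median difference -0.14, so the order of the depots for this list rests on each of these libraries.

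T cell genes of eWAT were highest in 1 WT library. Cd8a, the co-receptor of cytotoxic T cells, was at 4.68, 13.2 and 4.82 CPM in WT and 1.90, 0.871 and 4.59 CPM in C6KO in eWAT, with WT replicate 2 highest. The summed T and NK cell level was 263.8, 450.7 and 297.3 CPM in WT and 217.6, 184.4 and 275.9 CPM in C6KO, and WT replicate 2 again stood above the rest. In iWAT the sums were 89.0, 127.7 and 99.6 CPM against 37.2, 43.7 and 82.6 CPM. The mean ratio of C6KO to WT was 0.517 in iWAT and 0.67 in eWAT, and 0.805 in eWAT without WT replicate 2.

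MHC class II genes, which present antigen to helper T cells, were lower by nearly equal ratios in the 2 depots with all libraries, but not without eWAT WT replicate 2 or without iWAT C6KO replicate 3. Their 11 members had medians of -0.97 in iWAT and -0.98 in eWAT with a median difference of 0.00, all 11 estimates were below 0 in both depots, and none was called. Summed levels were 2172.8, 3528.0 and 2634.1 CPM in WT and 944.5, 1174.7 and 1951.1 CPM in C6KO in iWAT, and 5308.5, 14406.5 and 6178.1 CPM against 3342.5, 4392.3 and 5047.0 CPM in eWAT. The groups did not overlap in either depot, with ratios of 0.488 and 0.494, and the lead of eWAT WT replicate 2 over the other WT libraries was wide here too. Without it the eWAT ratio was 0.742, the eWAT median was -0.38 and the median difference -0.52. The iWAT ratio was 0.381, the iWAT median -1.32 and the median difference -0.28 without iWAT C6KO replicate 3. H2-Aa, the alpha chain of the class II molecule I-A, was at 399, 677 and 495 CPM against 188, 225 and 390.0 CPM in iWAT and at 918, 3019.9 and 1094 CPM against 515, 763 and 866 CPM in eWAT (log2 fold changes -0.97 and -1.23, adjusted p = 0.272 and 0.276).

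Mast cell and eosinophil genes had medians of -0.48 in iWAT and -0.98 in eWAT over 12 genes, with 3 lower without overlap in iWAT, 5 in eWAT and 1 in both. Cpa3, the carboxypeptidase of mast cell granules, had 161, 126 and 131 counts against 33, 109 and 71 counts in iWAT, and 1224, 1197 and 817 counts against 360, 447 and 572 counts in eWAT. It was lower without overlap in both, with log2 fold changes of -1.06 (adjusted p = 0.103) and -1.23 (adjusted p = 0.110). Mcpt4, a mast cell chymase, overlapped in iWAT and was lower without overlap in eWAT, at 73.7, 64.4 and 50.1 CPM in WT and 19.7, 31.5 and 32.7 CPM in C6KO. Dendritic cell genes had medians of -0.61 and -0.80 over 12 genes, and interferon-induced genes -0.19 and -0.50 over 28 genes. Without eWAT WT replicate 2 the eWAT medians were -0.30 for dendritic cell and -0.19 for interferon-induced genes, against -0.77 for the mast cell list. The iWAT medians without iWAT C6KO replicate 3 were -0.94 for dendritic cell and -0.55 for interferon-induced genes, so that the order of the depots turned for both lists. B cell genes had medians of -0.16 and 0.06 over 14 genes, and 0 of them were lower without overlap in either depot. The B cell median in iWAT was -0.91 without that library.

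Chemokines and their receptors held single genes with unlike estimates in iWAT and eWAT. Over 46 genes the medians were -0.60 in iWAT and -0.40 in eWAT, and 14 were lower without overlap in iWAT, 9 in eWAT and 6 in both. The iWAT median was -1.06 without iWAT C6KO replicate 3. Called lower in iWAT were Ccl3, Cxcl2 and Cxcr4. Ccl3, a chemokine that macrophages secrete, was at 1.80, 2.05 and 2.18 CPM in WT and 0.404, 0.737 and 0.53 CPM in C6KO in iWAT, and at 13.6, 11.5 and 10.7 CPM against 5.98, 8.61 and 6.57 CPM in eWAT. Its groups did not overlap in either depot, with log2 fold changes of -1.84 (adjusted p = 0.00886) and -0.75 (adjusted p = 0.176).

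Cxcl2, which recruits neutrophils, had 31, 16 and 22 counts in WT and 1, 1 and 5 counts in C6KO libraries of iWAT, but 50, 34 and 39 counts against 42, 58 and 61 counts in eWAT. It fell in iWAT (log2 fold change -3.31, standard error 0.58, adjusted p = 0.0135), the eWAT groups overlapped (0.37, standard error 0.43, adjusted p = 0.784), and the difference of -3.69 (standard error 0.72) had an adjusted p of 0.343 in edgeR and 0.00817 in DESeq2. In edgeR without iWAT C6KO replicate 3 it was called (-4.83, adjusted p = 0.00222). Ccl2, the main attractant of monocytes, was at 12.8, 8.89 and 13.2 CPM against 9.24, 7.88 and 12.2 CPM in iWAT, and at 20.0, 18.2 and 17.4 CPM against 28.7, 30.7 and 32.9 CPM in eWAT. The iWAT groups overlapped, and every C6KO library of eWAT was above every WT library. The estimate of Ccl2 in eWAT was 0.73 (standard error 0.18, adjusted p = 0.107), opposite in sign to those of most macrophage genes there, and the difference of -0.98 had an unadjusted p of 0.00202 and an adjusted p of 0.486. It was called without iWAT C6KO replicate 3 (-1.17, adjusted p = 0.0156).

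The cytokines that the study measured by PCR gave little here. The 15 inflammatory cytokine genes tested had medians of -0.76 in iWAT and -0.22 in eWAT, with 0 called in either depot. Tnf, tumour necrosis factor, had estimates of -0.58 in iWAT (adjusted p = 0.374) and -0.47 in eWAT (adjusted p = 0.530). Il1b, interleukin-1 beta, had 8, 11 and 4 counts against 5, 3 and 0 counts in iWAT, and 10, 27 and 18 against 11, 14 and 22 in eWAT. Il6 reached at most 6 counts and Ifng at most 25 counts in a library, and neither was tested.

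Cell division genes were lower in both depots. All 30 estimates of the proliferation list were below 0 in eWAT and 28 in iWAT, with medians of -0.47 in eWAT and -0.90 in iWAT. In iWAT 14 had no overlap between genotypes, as did 20 in eWAT, 8 of them shared, and 5 were called lower in iWAT (Mki67, Top2a, Aurkb, Mcm2 and Mcm5), or 27 without iWAT C6KO replicate 3. Top2a, the topoisomerase of dividing cells, was at 14.7, 15.3 and 14.7 CPM against 7.28, 5.04 and 9.95 CPM in iWAT, and at 48.5, 61.7 and 55.6 CPM against 32.9, 38.1 and 32.7 CPM in eWAT. The groups were apart in both, with log2 fold changes of -1.01 (adjusted p = 0.0191) and -0.68 (adjusted p = 0.126).

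Adipocyte genes were mostly higher in both depots, and here the median estimate was larger in eWAT. Of the differences, 15 were negative and 5 positive. The 20 genes of the adipocyte list had medians of 0.37 in iWAT and 0.61 in eWAT, and 13 were higher without overlap in iWAT, 15 in eWAT and 12 in both. Their summed level went from 68531.3, 65218.8 and 64904.2 CPM to 85589.6, 82294.9 and 75468.9 CPM in iWAT, a ratio of 1.23, and from 29965.7, 27209.0 and 28030.2 CPM to 43927.5, 40119.9 and 30717.9 CPM in eWAT, a ratio of 1.35. Every C6KO library was above every WT library in both depots, although eWAT C6KO replicate 3 was close to WT. In level, C6KO minus WT was 14899.7 CPM in iWAT and 9853.5 CPM in eWAT, so the order of the depots was the reverse of that by ratio. Pnpla2 and Adig were called higher in iWAT. The 20 PPARG target genes, which overlap with this list, had medians of 0.34 and 0.56, with 12 higher without overlap in iWAT, 15 in eWAT and 12 in both.

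Pnpla2, which encodes the triglyceride lipase ATGL, was at 3127, 2587 and 2959 CPM in WT and 5361, 4808 and 3900.2 CPM in C6KO in iWAT, and at 973, 855 and 1088 CPM against 1951, 1603 and 1484 CPM in eWAT. The groups were apart in both depots, and the estimates were close, at 0.70 in iWAT (standard error 0.17, adjusted p = 0.0389) and 0.79 in eWAT (standard error 0.17, adjusted p = 0.0897), with a difference of -0.09 (standard error 0.24). Adig, an adipocyte protein of the lipid droplet, rose from 90.2, 73.7 and 78.7 CPM to 133, 157 and 131 CPM in iWAT (log2 fold change 0.80, adjusted p = 0.0119). In eWAT Adig was at 34.5, 32.2 and 31.8 CPM in WT and 60.4, 64.1 and 45.7 CPM in C6KO, with a nearly equal estimate of 0.79 (adjusted p = 0.0542). Pparg itself, the nuclear receptor of adipocyte differentiation, had estimates of 0.30 in both depots (adjusted p = 0.146 in iWAT and 0.258 in eWAT), and Sp1 had 0.07 and -0.06.

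Genes of lipid burning had medians above 0 in both depots. Fatty acid oxidation genes had medians of 0.18 in iWAT and 0.38 in eWAT over 24 genes, with 12 higher without overlap in iWAT, 14 in eWAT and 9 in both, and Eci1 and Ehhadh called higher in iWAT. Ehhadh, the peroxisomal bifunctional enzyme, was at 53.7, 41.0 and 48.0 CPM against 123, 149.7 and 81.1 CPM in iWAT and at 17.8, 19.7 and 22.5 CPM against 54.8, 36.2 and 39.7 CPM in eWAT. Its groups were apart in both, with log2 fold changes of 1.31 (adjusted p = 0.0119) and 1.12 (adjusted p = 0.0792). Plin5, a perilipin that ties lipid droplets to mitochondria, was at 19.3, 27.0 and 27.2 CPM against 82.4, 106 and 78.6 CPM in iWAT and at 10.2, 7.22 and 12.95 CPM against 44.0, 14.04 and 31.8 CPM in eWAT, with log2 fold changes of 1.86 (adjusted p = 0.0215) and 1.56 (adjusted p = 0.110). Lipolysis genes had medians of 0.26 and 0.41 over 20 genes. Genes of branched-chain amino acid breakdown had medians of 0.28 and 0.32 over 23 genes, with 12 higher without overlap in iWAT, 10 in eWAT and 8 in both.

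Respiratory chain medians were near 0 in both depots. The 74 respiratory chain genes had medians of 0.06 and 0.11, and 5 were higher without overlap in iWAT, 6 in eWAT and 2 in both, none of them called. Over all genes tested, the shares higher without overlap were 8.34%, 12% and 2.72%. The 20 thermogenic genes had medians of 0.13 in iWAT and 0.49 in eWAT, again with 0 called. Counts of Ucp1, the uncoupling protein of brown fat, were 51, 37 and 23 against 63, 21 and 24 in iWAT, and 9, 19 and 3 against 102, 9 and 14 in eWAT, so that eWAT C6KO replicate 1 alone stood above WT.

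Median differences between the depots were -0.59 for cholesterol synthesis and -0.395 for de novo lipogenesis. They were -0.12 for lipolysis and -0.14 for fatty acid oxidation, and the gap between these lists was not tested. The 23 cholesterol synthesis genes had a median of -0.52 in iWAT and 0.10 in eWAT, and 22 of the 23 differences were negative. In iWAT, 7 were lower without overlap, in eWAT 0, and none was called in either depot. Summed levels were 1754.9, 1955.8 and 1643.8 CPM in WT and 1303.4, 1155.4 and 1772.4 CPM in C6KO in iWAT, where replicate 3 of C6KO was within the range of WT. In eWAT they were 1250.8, 1119.5 and 1175.5 CPM against 1375.0, 1573.2 and 999.9 CPM, and the groups overlapped as well. Without iWAT C6KO replicate 3, 9 of the 23 genes were called lower in iWAT and 4 differences were called. Without eWAT C6KO replicate 2 the median in eWAT turned to -0.08.

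Among the 20 genes of de novo lipogenesis, Acly and Elovl6 fell in iWAT and Acacb rose. Elovl6, which elongates palmitate, was at 32.2, 25.5 and 25.1 CPM against 11.8, 7.42 and 16.8 CPM in iWAT (-1.20 on the log2 scale, adjusted p = 0.0211) and at 17.3, 14.6 and 17.99 CPM against 16.4, 17.2 and 11.99 CPM in eWAT (-0.13, adjusted p = 0.875). Its groups were apart in iWAT and overlapped in eWAT, and the difference was called without iWAT C6KO replicate 3 (-1.39, adjusted p = 0.0200). Acacb, the acetyl-CoA carboxylase whose product restrains mitochondrial fatty acid entry, was at 152, 152 and 209 CPM against 385, 481 and 317 CPM in iWAT (1.21, adjusted p = 0.00847) and at 75.2, 58.5 and 65.5 CPM against 130.0, 112 and 91.2 CPM in eWAT (0.74, adjusted p = 0.111), apart in both. Fasn, fatty acid synthase, varied widely among C6KO libraries, with 693, 592 and 1754 CPM in iWAT and 797, 1652 and 294 CPM in eWAT.

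Collagens were lower in iWAT and less so in eWAT. The 26 genes had medians of -0.64 and -0.27, the difference was negative for 21, and 10 were called lower in iWAT, among them Col1a1, Col3a1, Col14a1 and Col6a1. Genes lower without overlap numbered 14 for iWAT and 7 for eWAT, of which 5 were shared, and the summed level was 0.614 of WT in iWAT and 0.859 in eWAT. Col3a1, a fibrillar collagen, was at 2654, 2635 and 2760.0 CPM against 753, 920.2 and 1702 CPM in iWAT and at 4195, 2948 and 3512 CPM against 2439, 2879.7 and 2252 CPM in eWAT. Its groups were apart in both depots, with log2 fold changes of -1.25 (adjusted p = 0.0210) and -0.49 (adjusted p = 0.427). Col14a1, a collagen of the fibril surface, was at 34.2, 36.1 and 36.7 CPM against 10.3, 16.0 and 16.5 CPM in iWAT and at 125, 119 and 97.3 CPM against 91.0, 92.5 and 93.7 CPM in eWAT. The difference between its estimates of -1.32 and -0.30 was -1.02 (standard error 0.22), with an adjusted p of 0.343 in edgeR and 0.0254 in DESeq2. Fitted without iWAT C6KO replicate 3, edgeR called the differences for Col3a1 (-1.19, adjusted p = 0.0154) and Col14a1 (-1.14, adjusted p = 0.0104). The 25 matrix remodelling genes had medians of -0.43 and 0.08 with 23 negative differences, and Mmp14 and Fn1 were called lower in iWAT.

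Endothelial genes were higher in eWAT and had a median near 0 in iWAT. The 20 genes had a median of 0.05 in iWAT and 0.56 in eWAT, all 20 estimates were above 0 in eWAT and 12 in iWAT, and 19 of the 20 differences were negative. Without overlap, 5 were higher in iWAT, 14 in eWAT and 3 in both. The summed level was 1289.4, 1225.6 and 1463.8 CPM in WT and 2137.4, 1784.2 and 1931.2 CPM in C6KO in eWAT, a ratio of 1.47. In iWAT it was 3438.8, 2793.8 and 2698.8 CPM against 3773.6, 2925.6 and 3215.0 CPM, a ratio of 1.11. The groups were apart in eWAT and overlapped in iWAT. No difference was called for this list, with or without iWAT C6KO replicate 3.

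Gpihbp1, which carries lipoprotein lipase to the capillary lumen, was the member called in eWAT. It was at 50.3, 55.5 and 53.2 CPM against 98.6, 102 and 99.8 CPM there (log2 fold change 0.92, standard error 0.12, adjusted p = 0.0134), and at 188, 141 and 179 CPM against 260.2, 219 and 253 CPM in iWAT (0.52, standard error 0.12, adjusted p = 0.0312, below the fold minimum). Its groups were apart in both depots, and the difference of -0.39 did not pass the test (adjusted p = 0.650). Cldn5, a tight junction protein of endothelium, was at 39.8, 40.04 and 54.1 CPM against 96.0, 96.5 and 102 CPM in eWAT, but at 248, 140.0 and 178 CPM against 211, 111 and 187 CPM in iWAT. The groups of Cldn5 were apart in eWAT and overlapped in iWAT, with estimates of 1.13 (adjusted p = 0.0970) and -0.15 (adjusted p = 0.782), and the difference of -1.29 (standard error 0.34) had an unadjusted p of 0.00285 and an adjusted p of 0.487. Sox18, an endothelial transcription factor outside the list, rose in eWAT by a log2 fold change of 1.21 (adjusted p = 0.0412) and had 0.52 in iWAT (adjusted p = 0.133). Adgrg1, an adhesion receptor, rose in eWAT by 0.73 on the log2 scale (adjusted p = 0.0401) and had 0.22 in iWAT.

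Genes were also ranked by how large the change was in both depots, among those with an unadjusted p below 0.05 in each and no overlap. Of the 10 lower ones, Sh2d1a, Klra7, Klra2, Tnfrsf17 and Fcgr4 belong to immune cells. Fcgr4, a macrophage Fc receptor, was at 8.32, 16.2 and 9.09 CPM against 1.91, 2.83 and 5.95 CPM in iWAT and at 31.8, 105 and 32.2 CPM against 20.7, 24.4 and 24.6 CPM in eWAT, with estimates of -1.65 and -1.28. Sh2d1a, the lymphocyte adaptor SAP, had 3, 17 and 1 counts in WT and 0 counts in all 3 C6KO libraries of iWAT, and 12, 34 and 22 counts against 5, 3 and 4 counts in eWAT. Cdh11, a cadherin of mesenchymal cells, was at 8.26, 4.91 and 5.02 CPM against 0.52, 2.66 and 3.003 CPM in iWAT and at 49.1, 46.7 and 35.4 CPM against 10.7, 15.5 and 27.9 CPM in eWAT, with estimates of -1.55 and -1.28. The remaining 4 were Car12, Frem1, Neurl1a and Hpca. Sh2d1a, Klra7, Klra2, Frem1 and Neurl1a were counted on different transcripts in iWAT and eWAT. Klra7 had few reads in iWAT, with 2, 5 and 8 counts in WT and 0, 2 and 0 counts in C6KO. Neurl1a and Hpca were called lower in iWAT on few reads, and none of the 10 was called in eWAT. In iWAT, Neurl1a had 16, 36 and 16 counts in WT and 1, 3 and 0 counts in C6KO. Hpca had 6, 2 and 4 counts in WT and 0, 0 and 0 counts in C6KO there.

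Of the 10 higher ones, Plin5, Rbp7 and Cyp2e1 were called in iWAT and none in eWAT. Rbp7, a retinol-binding protein, was at 30.7, 16.2 and 38.9 CPM against 135, 109.8 and 57.3 CPM in iWAT and at 14.6, 9.11 and 11.96 CPM against 54.2, 20.6 and 32.0 CPM in eWAT, apart in both, with log2 fold changes of 1.82 (adjusted p = 0.0499) and 1.58 (adjusted p = 0.169). Cyp2e1, a cytochrome P450 that adipocytes also express, was at 190.2, 94.6 and 137 CPM against 385, 1711 and 478 CPM in iWAT and at 31.4, 29.0 and 38.4 CPM against 162, 63.7 and 55.6 CPM in eWAT. The C6KO libraries were above WT in both depots, though iWAT C6KO replicate 2 and eWAT C6KO replicate 1 stood well above their groups. Alb, Cps1, Pigr and Orm3 are known from liver or epithelium, and Alb, albumin, was at 13.1, 8.58 and 33.4 CPM against 37.9, 41.8 and 190.2 CPM in iWAT and at 5.81, 2.36 and 7.03 CPM against 16.7, 47.8 and 52.2 CPM in eWAT. The 16 genes of the hepatocyte list, all tested, had summed levels of 19.2 to 82.5 CPM in WT and 52.3 to 368 CPM in C6KO in iWAT, and 12.9 to 20.5 CPM against 40.6 to 112 CPM in eWAT. In iWAT only C6KO replicate 3, at 367.8 CPM, was above the WT range, and without it the ratio to WT was 1.37 in place of 3.82 and the list's median -0.44 in place of 2.06. The part of liver RNA in the levels of Alb and Cps1 was not tested.

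Of the 10 genes with the smallest interaction p-values and a negative difference, 8 were called lower in iWAT and 0 in eWAT. Picking by a negative difference favours genes that are lower in iWAT. Over all genes the same fit called 436 lower in iWAT (2.83%) and 4 in eWAT (0.026%). Stac2, an adaptor of calcium channels, was at 7.95, 5.97 and 9.03 CPM against 2.43, 1.19 and 1.41 CPM in iWAT and at 34.1, 24.4 and 34.4 CPM against 31.3, 29.1 and 19.9 CPM in eWAT. It fell in iWAT (log2 fold change -2.19, adjusted p = 0.00366) while the eWAT groups overlapped (-0.21, adjusted p = 0.769), and the difference of -1.98 (standard error 0.37) had an adjusted p of 0.343 in edgeR and 0.00265 in DESeq2. Nlrp1a, an inflammasome sensor, was at 2.11, 3.05 and 2.66 CPM against 0.462, 0.623 and 0.412 CPM in iWAT and at 6.26, 7.12 and 6.75 CPM against 4.48, 5.17 and 6.13 CPM in eWAT. Both depots were lower without overlap, and the fall was called in iWAT (-2.37, adjusted p = 0.00294) but not in eWAT (-0.35, adjusted p = 0.592). Acot11, an acyl-CoA thioesterase, had estimates of -2.10 (adjusted p = 0.00322) and -0.28 (adjusted p = 0.649), and its difference of -1.81 had an adjusted p of 0.343 in edgeR and 0.00231 in DESeq2. All 3 differences were called by edgeR without iWAT C6KO replicate 3, at -1.87 for Stac2 (adjusted p = 0.0239), -1.90 for Nlrp1a (adjusted p = 0.0237) and -2.05 for Acot11 (adjusted p = 0.00560).

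Opposite directions in the 2 depots were rare. Genes lower in iWAT and higher in eWAT, without overlap in either, numbered 37 (0.24%), and 33 (0.214%) went the other way. Myh14, a non-muscle myosin heavy chain, was at 23.4, 17.7 and 18.1 CPM against 13.5, 12.5 and 15.0 CPM in iWAT, where it was lower, and at 10.3, 8.32 and 10.7 CPM against 16.8, 22.1 and 15.9 CPM in eWAT, where it was higher. Its estimates were -0.52 (adjusted p = 0.106) and 0.90 (adjusted p = 0.0735), and the difference was -1.43 (standard error 0.24), with an adjusted p of 0.343 in edgeR and 0.00236 in DESeq2. Ints6l, a relative of an Integrator subunit, went the other way, at 29.8, 28.3 and 29.9 CPM against 30.3, 50.5 and 40.8 CPM in iWAT and at 55.9, 63.3 and 53.4 CPM against 34.0, 34.0 and 34.8 CPM in eWAT. The difference for Ints6l was 1.22 (standard error 0.21), with an adjusted p of 0.343 in edgeR and 0.00231 in DESeq2. Both differences were called by edgeR without iWAT C6KO replicate 3, at -1.50 for Myh14 (adjusted p = 0.00554) and 1.21 for Ints6l (adjusted p = 0.00944). The plot of genes with opposite estimates also holds Gm7694, Gnao1, Esrrg and Ryr2, and for Esrrg the count tables of the 2 depots cover different transcripts.

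**Figure D5:**
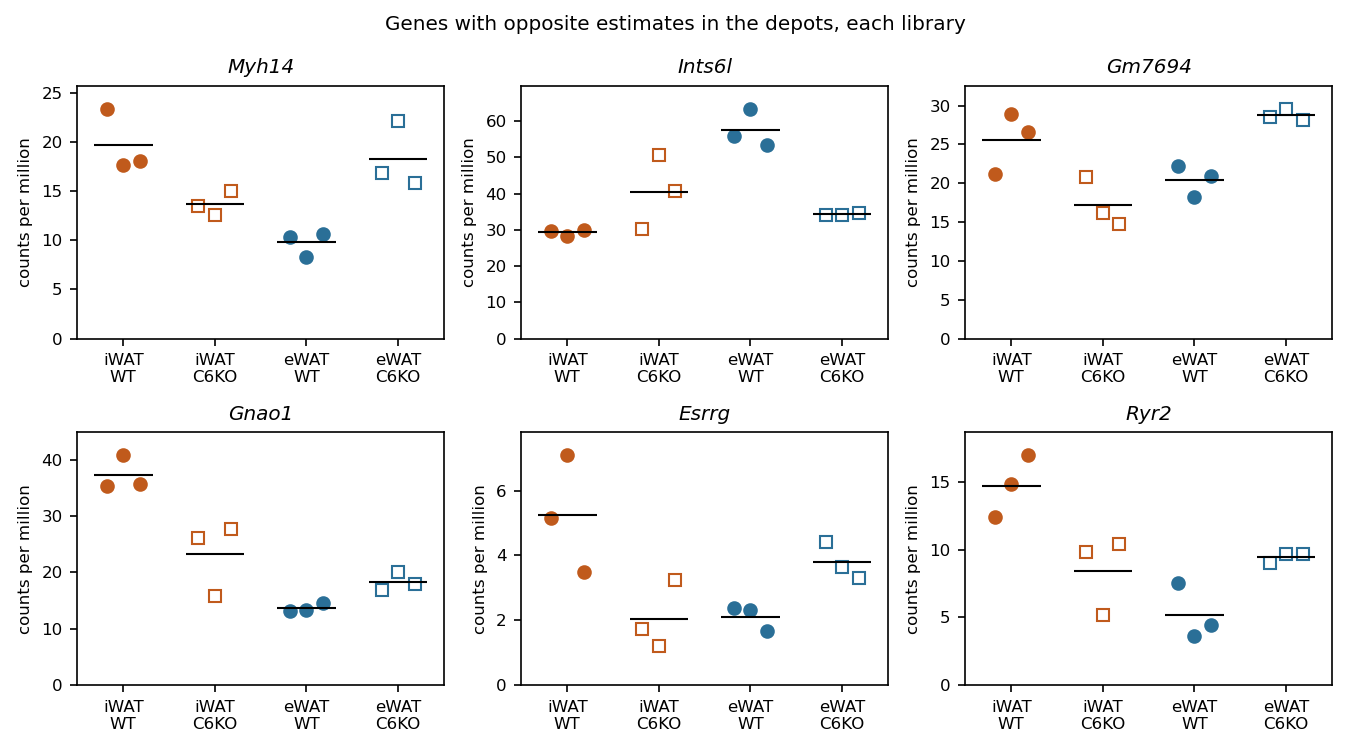
CPM of 6 genes in each library of WT (filled circles) and C6KO (open squares) in iWAT and eWAT, with the group mean as a line. Myh14, Gm7694, Gnao1, Esrrg and Ryr2 are lower in C6KO in iWAT and higher in eWAT without overlap, and Ints6l is higher in iWAT and lower in eWAT.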

How the data were processed

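The mice, the diet and the sequencing are the study's. The authors made libraries from poly(A) RNA, ran them on a NextSeq instrument, aligned reads to mm10 with STAR and counted reads on exons with HOMER, condensing each gene to 1 transcript. The deposited values are whole-number counts without normalization, in 1 table per depot of 25124 genes. Strandedness, annotation and tool versions are not given in the sources used here, so overlapping and antisense genes cannot be told apart. For 1000 of the 15404 genes tested the transcript differs between the 2 tables.

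The iWAT and eWAT tables were joined by gene symbol, and 51 genes of chromosome Y were left out. From the counts, edgeR 4.0.16 (limma 3.58.1, R 4.3.3) fitted 1 coefficient for each of 4 groups of 3 libraries after filterByExpr and TMM scaling, with robust dispersions (common biological coefficient of variation 0.208), and tested both C6KO effects and their difference. Standard errors come from the F statistic. The script was tested on simulated data. Library totals of 16506034 to 19139694 counts leave genes under about 1 CPM with few reads. The p-values measure the spread between these libraries. Gene lists are described by counts and medians with no test of the list. The members and lists were chosen with earlier results of these data known. Genes were named by rule, from those with a mean of at least 1 CPM in a group and more than 10 Mb from Casp6: the 10 smallest interaction p-values in each direction, the 10 concordant genes in each direction with the largest smaller change and no overlap, and the 6 opposite genes with the smallest interaction p. Genes the study measures, called members of lists (otherwise the 2 members with the smallest interaction p and the 2 with the highest CPM) and genes called in both depots or in eWAT were added. Adgre1, Ccl2, Cd8a, Cldn5, Cpa3, Fasn, Gpnmb, Mertk and Trem2 were picked from their lists after their values were seen. Alternatives were DESeq2 1.42.0 and its size factors, total counts as scaling, other filters on low counts, glmTreat against a fold of 1.5, all 18 libraries, a replicate block, limma voom with sample weights, genes with 1 transcript in both tables, each depot alone, and each library left out. Figures used matplotlib 3.10.9. Values of some single genes are not reported here.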

Additional observations from a re-analysis of the deposited data

Results flagged for a closer look

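The genes here had estimates of opposite sign in the 2 depots, with every C6KO library on the other side of every WT library in each depot. The difference of the log2 fold changes, iWAT minus eWAT, was -1.43 for Myh14 and 1.22 for Ints6l, each with an adjusted p of 0.343 from edgeR's interaction test. It was -1.06 for Gm7694, a predicted gene (adjusted p = 0.343 from edgeR), with 21.2, 28.9 and 26.6 CPM in WT and 20.7, 16.2 and 14.8 CPM in C6KO in iWAT and 22.2, 18.2 and 20.9 CPM against 28.5, 29.6 and 28.1 CPM in eWAT. For Gnao1, a G protein alpha subunit, it was -1.11 (adjusted p = 0.426 from edgeR), with 35.3, 40.8 and 35.8 CPM against 26.2, 15.8 and 27.7 CPM in iWAT and 13.1, 13.3 and 14.5 CPM against 16.9, 20.0 and 18.01 CPM in eWAT. Ryr2, a calcium release channel, had -1.67 and Esrrg, a nuclear receptor of oxidative metabolism, had -2.19, both with an adjusted p of 0.486 from edgeR. Esrrg was counted on different transcripts in the 2 tables. Magoh, of the exon junction complex, had 0.77 (adjusted p = 0.486 from edgeR) and Luc7l3, a splicing factor, had 0.58 (adjusted p = 0.487 from edgeR). None of these 8 differences passed edgeR's test with all 12 libraries, whereas DESeq2 called Myh14 (adjusted p = 0.00236), Ints6l (adjusted p = 0.00231), Gm7694 (adjusted p = 0.0254) and Esrrg (adjusted p = 0.0495). Without iWAT C6KO replicate 3, edgeR called 7 of the 8, all but Magoh, with adjusted p of 0.00554 for Myh14, 0.00944 for Ints6l, 0.0314 for Gm7694, 0.0137 for Gnao1, 0.0337 for Ryr2, 0.00797 for Esrrg and 0.0424 for Luc7l3. Across all 15404 genes, 37 were lower in iWAT and higher in eWAT without overlap and 33 the reverse.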

How the results depend on the processing

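The count of genes whose knockout effect differed between the depots, 0 in each direction, became 36 negative and 2 positive with DESeq2, and 0 to 403 negative and 0 to 20 positive when each library was left out in turn. Without iWAT C6KO replicate 3 it was 403 and 20, and without iWAT C6KO replicate 1 it was 0 and 1. The other alternatives run gave 0. Genes lower in iWAT (436) became 840 with DESeq2, 14 with glmTreat and 3 from the depot's 6 libraries alone, with 89 to 1230 over libraries left out. Genes higher in iWAT (55) became 217, 0 and 1, with 5 to 360. Genes lower in eWAT (4) became 54 with DESeq2, 42 with limma voom and 31 from the depot alone, with 3 to 34, and genes higher in eWAT (5) became 240, 114 and 80, with 0 to 102. For the latter, no filter gave 30, at least 10 counts in every library 18, glmTreat 0 and all 18 libraries 1. Without iWAT C6KO replicates 1, 2 and 3 in turn, 65, 47 and 102 genes were higher in eWAT, and without eWAT C6KO replicate 2, 38 were. Genes lower in both depots (135) became 36 with glmTreat, with 59 (without eWAT WT replicate 2) to 237 (without iWAT C6KO replicate 3), and genes higher in both (125) became 37, with 78 (without eWAT WT replicate 2) to 181. The causes were not tested, except that glmTreat asks more of each gene.

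The macrophage list's median was negative in both depots under every alternative run, with -2.004 to -1.16 in iWAT and -0.71 to -0.47 in eWAT over libraries left out. Its difference was -1.39 to -0.46, the former without iWAT C6KO replicate 3. No result changed sign past a threshold. The medians of the endothelial, cholesterol synthesis, collagen and adipocyte lists, and the counts of shared genes, were added after seeing the data. Over libraries left out, the difference was -0.54 to -0.35 for endothelial genes, -0.87 to -0.40 for cholesterol synthesis and -0.63 to -0.46 for collagens. Whether equal replicate numbers mark shared mice is not given in the sources used here, so the numbers were not used as pairs: deviations from group means of equally numbered iWAT and eWAT libraries correlated by 0.102, 0.239 and 0.0447 in WT and 0.22, -0.074 and 0.0803 in C6KO. With a replicate block the difference between the depots was again called for 0 genes (macrophage difference -0.76), 8 genes were lower and 37 higher in eWAT, and 491 were lower and 54 higher in iWAT. A block within each genotype also called 0 differences. Among single genes, 62 values gained the threshold under an alternative and 128 lost it. Depth limits genes under about 1 CPM, such as Cxcl2 in iWAT.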

Other observations

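The cells around adipocytes gave further values. The 18 adipocyte progenitor genes had median log2 fold changes of -0.33 in iWAT and -0.22 in eWAT, with Dpp4 and Cd34 called lower in iWAT by edgeR, and 7 were lower without overlap in iWAT, 3 in eWAT and 2 in both. The 18 resident macrophage genes had medians of -0.46 and -0.08, with 16 of 18 differences negative and Mrc1 and Stab1 called lower in iWAT. In eWAT, 9 of the 18 estimates were below 0 and 9 above. There 4 genes were lower without overlap and 3 were higher, namely Lyve1 (0.88), Chil3 (0.59) and Cd209d (1.41). Lyve1 is also a member of the endothelial list. Among 8 genes of lymphoid follicle stroma, Madcam1, an addressin for lymphocyte homing, was called higher in iWAT (log2 fold change 3.31, adjusted p = 0.0472 from edgeR). Schwann cell and nerve genes had medians of -0.22 and -0.06 over 12 genes, and TCA cycle genes 0.10 and 0.23 over 21 genes. Without iWAT C6KO replicate 3 the iWAT medians were -0.57 for adipocyte progenitor, -0.96 for resident macrophage, -0.62 for follicle stroma and 0.01 for Schwann cell and nerve genes. Triglyceride synthesis genes had medians of -0.03 and 0.28 over 17 genes, with Lpin2 called lower in iWAT, and insulin and glucose genes -0.03 and 0.10 over 24 genes, with Pkm called lower in iWAT. Fatty acid uptake genes had 0.07 and 0.21 over 16 genes.

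Markers of tissues that can adhere to a fat pad varied between libraries. Mesothelial genes summed to at most 9.07 CPM in iWAT, and to 278, 265 and 163 CPM in WT and 60.0, 128 and 248 CPM in C6KO in eWAT. Skeletal muscle genes were highest in iWAT C6KO replicate 1, at 684 CPM. Red blood cell genes had medians of -1.50 in iWAT and 0.88 in eWAT over 5 genes, with 4 lower without overlap in iWAT, and -2.32 in iWAT without C6KO replicate 3. B cell genes summed to 101, 491 and 581 CPM in WT and 69.9, 70.3 and 724 CPM in C6KO in eWAT. Neutrophil genes had medians of 0.23 and 0.35 over 7 genes, and 0 of 12 epididymis genes and 2 of 12 epithelial genes had enough counts to be tested. The part of these tissues in any result was not tested.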
